A study of Homo sapiens with 8 samples.

Results

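The RNA levels of 47 interferon-stimulated and RNA-sensing genes were followed in G401 cells with and without SMARCB1. The genes were listed by name out of 69215 genes in the count tables, with earlier results of these data known. They comprise 7 nucleic acid sensors and adaptors, 6 STAT and IRF transcription factors and 34 effectors. G401 cells are a long-established culture from a rhabdoid kidney tumor that has lost SMARCB1, which is part of the core of SWI/SNF chromatin remodelling complexes. A Tet-On transgene, switched on by doxycycline (Dox), expressed SMARCB1 in one derived line and GFP in the other. Cells of each line were kept for 12 h with Dox at 0.1 µg/ml or with its solvent, dimethylsulfoxide (DMSO). The 4 groups, SMARCB1 DMSO, SMARCB1 Dox, GFP DMSO and GFP Dox, held 2 libraries each. All groups shared the tumor background and carried a Tet-On transgene, and SMARCB1 came from that transgene and not from its own locus. Whether the libraries of a group came from separate cultures was not stated, so p-values measure the spread between these libraries, which may be technical. The methods do not say whether a line is 1 clone. Because RNA was measured in bulk, fewer cells expressing a gene and less RNA per cell cannot be told apart.

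Cells detect foreign or misplaced nucleic acids with sensors such as RIG-I and MDA5 for RNA in the cytoplasm, TLR3 for double-stranded RNA in endosomes and cGAS for DNA. The adaptors MAVS, for the RNA sensors of the cytoplasm, and STING, for cGAS, activate the factors IRF3 and IRF7, which switch on the interferon genes. Secreted interferon then acts through its receptors and JAK kinases to assemble a complex that holds STAT2 and IRF9 and binds the interferon-stimulated response element (ISRE), a short motif in the promoters of genes whose products block viruses.

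Counts assigned to genes summed to between 29632090 and 37597477 in a library. A floor of 3 counts therefore corresponded to between 0.0781 and 0.103 CPM, the unit of all levels here, in which counts are divided by library size after TMM scaling. Group levels are mean ± SD over 2 libraries, and log2 differences are given ± their standard error (SE). SMARCB1 itself went from 10 and 21 counts without Dox to 30474 and 29383 with it in its own line, and had 0 in each of the 4 GFP libraries. The SMARCB1 libraries thus matched their labels, and the labels Dox and DMSO of the GFP libraries were not checked here. Calls were made with edgeR over the 15931 genes that passed its expression filter, at an adjusted p (Benjamini-Hochberg) under 0.05. Of the leukocyte markers given here, CD3E had 0 counts throughout, and PTPRC, CD14 and LYZ had at most 6 in any library. ITGAM had at most 5 counts in the SMARCB1 libraries and 9 to 19 in the GFP libraries, and CD74 had 1433 to 1954 counts. Mitochondrially encoded genes took 27.9% and 23.9% of the counts in SMARCB1 DMSO and 18.9% to 22.9% in the other groups, and the members called in each comparison numbered the same when these genes were left out of the scaling.

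ISRE sequences are shown for DTX3L, PARP9, PARP14 and TLR3, on which the results turn, and for other members for comparison. They come from RefSeq windows on GRCh38.p14 that reach from 250 bases before to 50 bases after each gene start. Of the 47 genes, 34 had a window. STING1 and SLFN5, on which the results also turn, had none. The windows of IFIH1, IFIT1, ISG15 and OAS3 also held matches that are not shown. Each line gives 30 bases on the strand of the gene, 5′ to 3′, with the motif in capitals, which is GAAA, any 2 bases and GAAA again, or the same read on the other strand.
DTX3L (chr3:122564322-122564351, plus strand): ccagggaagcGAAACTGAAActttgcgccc
PARP9 (chr3:122564322-122564351, minus strand): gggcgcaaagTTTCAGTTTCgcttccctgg
PARP14 (chr3:122680800-122680829, plus strand): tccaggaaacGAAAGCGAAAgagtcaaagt
TLR3 (chr4:186069142-186069171, plus strand): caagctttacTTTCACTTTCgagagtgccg
IFIH1 (chr2:162318686-162318715, minus strand): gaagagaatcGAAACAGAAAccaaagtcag
IFIT1 (chr10:89392497-89392526, plus strand): ctagctttagTTTCACTTTCccctttcggt
ISG15 (chr1:1013380-1013409, plus strand): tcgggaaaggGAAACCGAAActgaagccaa
OAS3 (chr12:112938452-112938481, plus strand): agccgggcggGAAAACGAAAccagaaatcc
The lines for DTX3L and PARP9 are the same 30 bases of chromosome 3 read on opposite strands. These genes lie head to head, and their annotated bodies share 240 bases, from position 122564338 to 122564577. Counted from the RefSeq starts, the motif begins 6 bases before the start of DTX3L and 41 bases before that of PARP9. That start of PARP9 is 1 of its 2 RefSeq starts in the table and lies 277 bases inside the GENCODE gene body, and the RefSeq start of TLR3 lies 245 bases inside its GENCODE body, so both motifs fall within those bodies. PARP14 starts 105.6 kb beyond the end of DTX3L and has its motif 29 bases before its own start.

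The members spanned levels from silent to abundant, and 18 of them had too few counts to be tested. The other 29 passed the expression filter, namely 5 of the 7 sensors and adaptors, all 6 factors and 18 of the 34 effectors. OASL, HERC5, RSAD2 and CMPK2 had 0 counts in all 8 libraries. OASL is a relative of the oligoadenylate synthetases, HERC5 attaches ISG15 to other proteins, and RSAD2 encodes viperin, whose gene lies beside that of the nucleotide kinase CMPK2. The others not tested were IFIT2, IFIT3, IFI27, IFI44, IFI44L, MX1, MX2, OAS1, OAS2, IFIH1, SAMD9, SAMD9L, XAF1 and CGAS. Their highest count in any library was 9, and their highest total over 8 libraries was 21. MX1, a dynamin-like antiviral GTPase, had 2 counts in GFP DMSO replicate 1 and 0 elsewhere.

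Among the members that were expressed, levels are compared per kilobase of annotated exon, averaged over all libraries. BST2, which tethers budding virus particles to the cell surface, stood at 56.3 CPM per kb. IFITM3, IFITM2 and IFITM1, membrane proteins that hinder viral entry, stood at 50.7, 36.4 and 10.5 CPM per kb. ADAR, which edits adenosine in double-stranded RNA, stood at 25 CPM per kb, and MAVS at 15.4. The cytoplasmic sensor RIG-I (RIGI) was at the other end with 0.0868 CPM per kb, and IFIT1, which binds viral RNA ends, had 0.0588. The 6 transcription factors lay in between, with group medians of 0.808 to 0.896 CPM per kb. Taking the longest transcript of each gene in place of all exons gave a similar order, with a Spearman correlation of 0.991 across the 29 genes, which are not independent replicates. The order of the genes named above did depend on the length used. By longest transcript, IFITM3, at 138 CPM per kb, stood above BST2, at 61.9, and IFITM1, at 20.7, above MAVS, at 15.5.

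**Figure D1:**
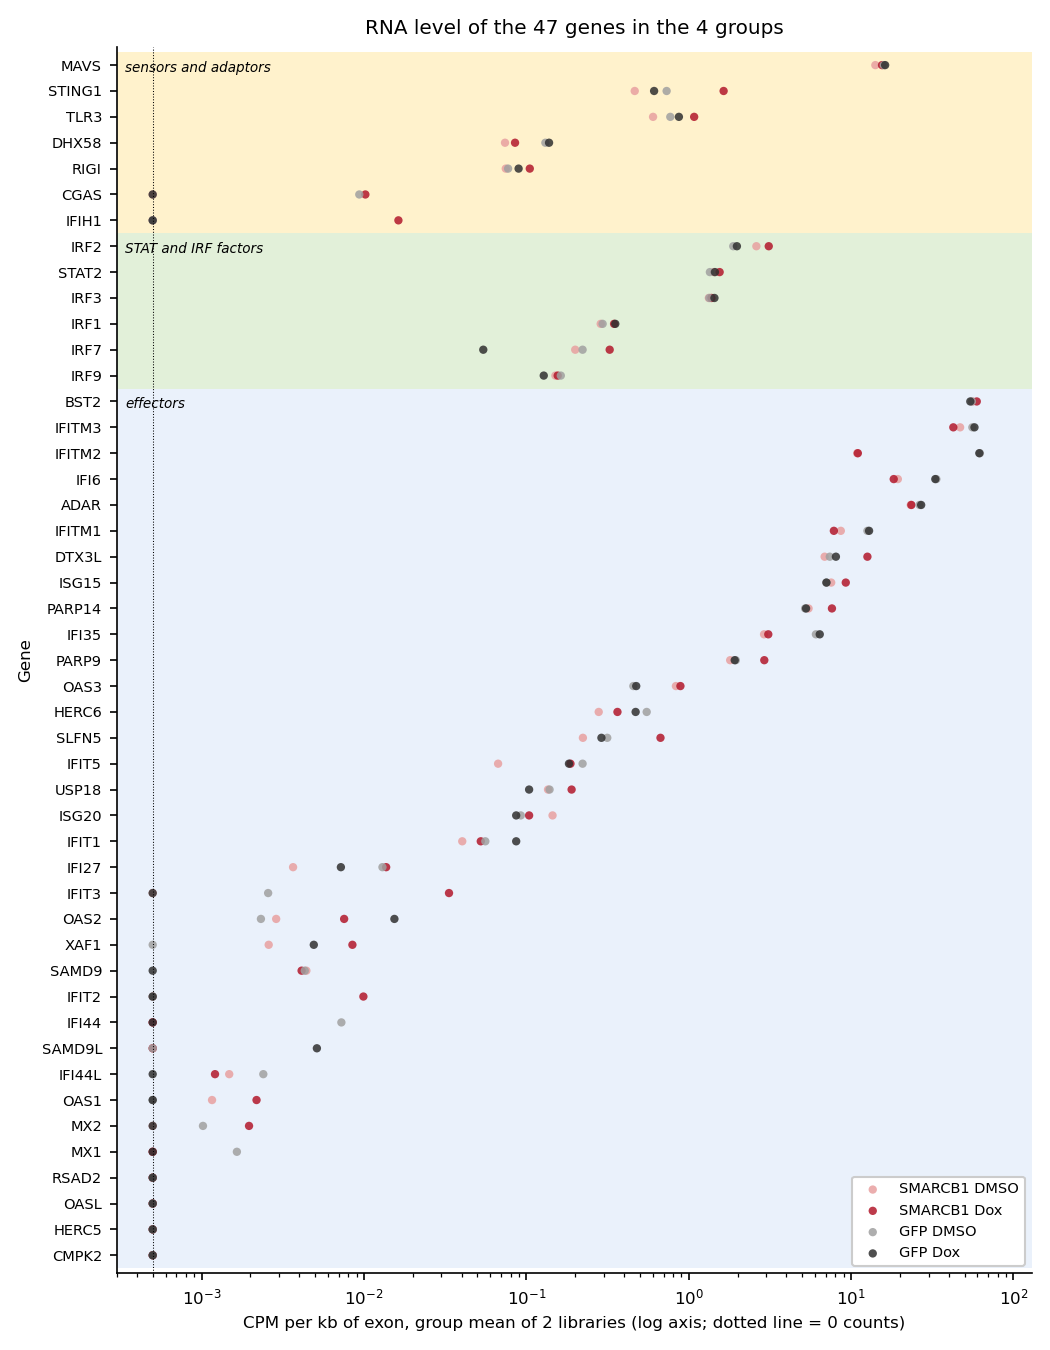
RNA level of each of the 47 genes on a log axis, in CPM per kb of exon, with 1 point per group (mean of 2 libraries) and the genes ordered by level within their role. Points on the dotted line stand for groups without a count; the silent genes CMPK2, HERC5, OASL and RSAD2 have all 4 points there, while BST2 and IFITM3 lie near 50 CPM per kb.

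The inducers at the head of the pathway were close to absent. Of 21 interferon ligand genes in the files, 19 had 0 counts in all libraries, and the 2 counts of the whole list came from IFNA7 in GFP Dox and IFNL2 in GFP DMSO. A count of 0 allows up to 0.103 CPM in the library with the highest floor, so lower levels were not detectable at this depth. These limits cover counting error only. All 10 receptor and kinase genes were measured.

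Comparing SMARCB1 Dox with SMARCB1 DMSO asks how these genes respond when the missing subunit returns. With re-expression, 6 members were called higher and 0 lower. They were the adaptor STING1, the sensor TLR3, the growth regulator SLFN5 and the ADP-ribosylation genes DTX3L, PARP9 and PARP14. The 6 calls are out of 29 members tested and 47 in all. Across all genes tested, 14% were called in this comparison, with 8.33% called higher and 5.69% lower. The median log2 fold change of the members tested was 0.25, against -0.004 for all genes tested. With the replicate number as a block in the model and a correction for the GC content of genes, these medians were 0.15 and 0.008. The 6 genes were called under each of the 16 alternatives run for this comparison, including the removal of any 1 library. Of 4 fibroblast markers, only COL1A1 was called here, at 0.37 ± 0.119 (SE) on the log2 scale (edgeR, Benjamini-Hochberg adjusted p 0.0404), DCN and LUM had at most 1 count in a library, and the summed level of the 4 was 100 to 125 CPM without and 115 to 116 CPM with SMARCB1.

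STING1 encodes the endoplasmic reticulum protein STING, which relays the signal of cytoplasmic DNA sensing (chromosome 5, 139475533 to 139482935, minus strand). It had 62 and 77 counts in SMARCB1 DMSO and 272 and 282 in SMARCB1 Dox. In CPM this was 2.13 and 2.33 without SMARCB1 and 7.64 and 8.06 with it. The GFP libraries lay between these groups, with 3.73 and 3.28 CPM in DMSO and 3.28 and 2.59 in Dox. Both SMARCB1 Dox libraries were above all 6 others. The rise was 1.81 on the log2 scale with a standard error of 0.189, or 3.51-fold (edgeR, Benjamini-Hochberg adjusted p 9.02e-07). CGAS, which makes the messenger that activates STING, had at most 3 counts in any library.

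SLFN5, a member of the schlafen family that interferon induces in many cells (chromosome 17, 35243071 to 35273655, plus strand), followed the same order of groups. Its counts were 61 and 88 without SMARCB1 and 261 and 244 with it, while GFP DMSO held 111 and 132 and GFP Dox 95 and 114. The 2.09 and 2.67 CPM of the SMARCB1 DMSO libraries became 7.33 and 6.98 CPM with Dox, again above every other library. This was a log2 fold change of 1.58 ± 0.186 (SE), or 2.99-fold (edgeR, Benjamini-Hochberg adjusted p 4.04e-06). The relatives by function in its subgroup, SAMD9, SAMD9L and XAF1, had too few counts to be tested.

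The neighbours DTX3L and PARP9 rose together. DTX3L is a ubiquitin ligase, and PARP9 is the macrodomain protein with which it forms a complex. DTX3L (chromosome 3, 122564338 to 122575203, plus strand) had 39.6 and 39.7 CPM in SMARCB1 DMSO and 69.7 and 75.3 in SMARCB1 Dox, while the 4 GFP libraries lay between 41.1 and 46.8 CPM. Its log2 fold change was 0.87 ± 0.084 (SE) (edgeR, Benjamini-Hochberg adjusted p 3.53e-07). PARP9 (chromosome 3, 122527924 to 122564577, minus strand) had 15.3 and 16.9 CPM in SMARCB1 DMSO and 24.3 and 28.0 in SMARCB1 Dox, against 16.6 to 17.7 CPM in the GFP libraries. It changed by 0.70 ± 0.11 (SE) (edgeR, Benjamini-Hochberg adjusted p 0.000132). For both genes the SMARCB1 Dox libraries were the highest of all 8. Their overlap on opposite strands covers 2.41% of the exon bases of DTX3L and 1.56% of those of PARP9, and the strand setting of the counting was not given.

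PARP14, a larger macrodomain ADP-ribosyltransferase in the same chromosome region (122680839 to 122730840, plus strand), also rose. It had 55.4 and 56.9 CPM without SMARCB1 and 71.8 and 84.7 with it, and the GFP libraries lay between 50.4 and 57.7. The groups of the SMARCB1 line did not overlap, and the change was 0.48 ± 0.095 (SE) (edgeR, Benjamini-Hochberg adjusted p 0.0013). Without SMARCB1 Dox replicate 2 it was 0.35.

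TLR3, the endosomal sensor of double-stranded RNA (chromosome 4, 186068911 to 186088073, plus strand), had 5.07 and 3.97 CPM in SMARCB1 DMSO and 8.54 and 7.64 in SMARCB1 Dox. The GFP libraries held 5.06 and 6.48 CPM in DMSO and 6.46 and 6.58 in Dox. The SMARCB1 Dox libraries were the highest, but by a smaller margin over GFP than for STING1 or SLFN5. The log2 fold change was 0.84 ± 0.17 (SE) (edgeR, Benjamini-Hochberg adjusted p 0.00155).

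**Figure D2:**
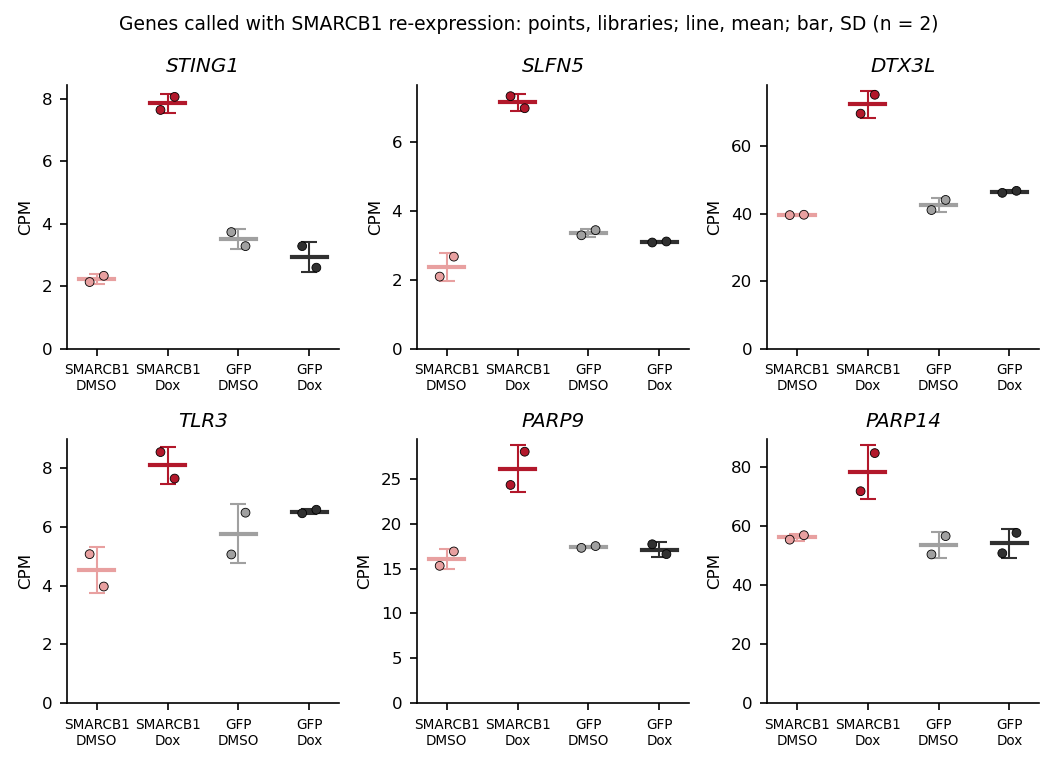
CPM of the 6 genes called for SMARCB1 Dox against SMARCB1 DMSO, with 1 point per library, a line at the group mean and bars of 1 SD (n = 2), on axes that start at 0. In each panel both SMARCB1 Dox libraries lie above the other 6; STING1 goes from a mean of 2.23 to 7.85 CPM and PARP14 from 56.2 to 78.3.

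The remaining sensors and adaptors were measured but not called. MAVS, the mitochondrial adaptor of the cytoplasmic RNA sensors, had 160 and 173 CPM without SMARCB1 and 178 and 187 with it. The GFP libraries held 182 and 193 CPM of MAVS in DMSO and 180 and 201 with Dox. Its log2 difference with SMARCB1 was 0.13 ± 0.083 (SE) (edgeR, Benjamini-Hochberg adjusted p 0.338). RIGI had 23 and 25 counts without and 38 and 39 with SMARCB1, a difference of 0.50 ± 0.364 (SE) (edgeR, Benjamini-Hochberg adjusted p 0.436), and 25 to 32 counts in the GFP line. The counts of RIGI were uncertain because 43.2% of its exon bases also belong to another annotated gene on the same strand. DHX58, which encodes the regulatory relative LGP2, had 5 and 13 counts without SMARCB1, 12 and 11 with it, and 16 to 19 in the GFP libraries. The change of DHX58 was 0.18 ± 0.576 (SE) and was not called. IFIH1, which encodes MDA5, had 2 and 4 counts in SMARCB1 Dox and 0 in the other 6 libraries. Against a floor of 3 counts over the SMARCB1 DMSO group, this was a 1.76-fold ratio, without a test. The counting error of the SMARCB1 Dox counts is left out of it, so the true ratio may be smaller.

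With SMARCB1, 0 of the 6 transcription factors were called by edgeR, also 0 by DESeq2, and 1 of them, IRF2, had an unadjusted p under 0.05. Their log2 changes ranged from 0.05 to 0.71. STAT2, a part of the interferon-activated complex, had 12.7 and 14.0 CPM without and 12.7 and 16.2 with SMARCB1, and 11.9 to 15.1 in the GFP libraries. IRF9, the DNA-binding partner of that complex, had 34 and 26 counts without and 34 and 37 with SMARCB1, and 24 to 38 in the GFP libraries. For both factors the SMARCB1 DMSO and SMARCB1 Dox libraries overlapped.

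IRF3, the factor that sensors activate directly, had 5.07 and 5.03 CPM without SMARCB1, 5.22 and 5.23 CPM with it, and 4.45 to 6.47 CPM in the GFP libraries. IRF1, an activator, had 3.53 and 3.52 CPM without and 4.8 and 3.72 with SMARCB1, and 3.44 to 4.61 in the GFP libraries. IRF2, its antagonist at many promoters, had 17.6 CPM in both SMARCB1 DMSO libraries and 21.1 and 20.6 in SMARCB1 Dox, a difference of 0.25 ± 0.106 (SE) (edgeR, Benjamini-Hochberg adjusted p 0.131). IRF2 was called with library totals (edgeR, adjusted p 0.0441) and with the replicate block and GC correction (edgeR, adjusted p 0.0291). The counts of IRF1, IRF3 and IRF9 were uncertain, since their exon bases overlap other genes. The overlap on the opposite strand was 22.9% for IRF1 and 19.3% for IRF3. For IRF9 it was 23.9% on the same strand and 8.05% on the opposite strand. IRF7, the factor that amplifies interferon production, had 19 and 13 counts without SMARCB1 and 24 and 36 with it. In the GFP line it had 19 and 23 counts in DMSO and 2 and 8 with Dox. The GFP Dox libraries were the lowest of all 8 for IRF7, and the change in the SMARCB1 line was 0.71 ± 0.473 (SE), and was not called.

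Of the other effectors, IFIT5, which binds RNA with a triphosphate end, came nearest to a call. It had 10 and 8 counts in SMARCB1 DMSO and 42 and 16 in SMARCB1 Dox. Its log2 difference of 1.49 had a standard error of 0.525 (edgeR, Benjamini-Hochberg adjusted p 0.0648). The value rested on SMARCB1 Dox replicate 1, since the difference was 0.65 without it and 2.01 without replicate 2, where it was called (edgeR, Benjamini-Hochberg adjusted p 0.0152). It was also called with library totals, without an expression filter, and with the replicate block alone or with a GC correction (edgeR, adjusted p 0.0143 to 0.048). Its family member IFIT3 had 9 and 3 counts in SMARCB1 Dox, 0 in SMARCB1 DMSO and 1 in the GFP line. Against a floor of 3 counts over the SMARCB1 DMSO group this was a 3.52-fold ratio. It leaves out the counting error and spread of the SMARCB1 Dox counts, so the true ratio may be smaller. IFIT1 had 2 and 10 counts without and 5 and 12 with SMARCB1, and IFIT2 had 3 counts in SMARCB1 Dox replicate 2 and 0 elsewhere. The IFIT genes lie side by side on chromosome 10, and their counts were too few to rank them.

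ISG15, a ubiquitin-like modifier, had 5.76 and 7.31 CPM in SMARCB1 DMSO and 8.82 and 7.26 in SMARCB1 Dox, so that the groups overlapped. USP18, which removes ISG15 from proteins, had 13 and 22 counts without and 28 and 27 with SMARCB1, a difference of 0.47 ± 0.429 (SE). HERC6, a ubiquitin ligase of the HERC family, had 1.68 and 1.55 CPM without and 1.6 and 2.6 with SMARCB1. None of these 3 genes was called. ADAR had 271 and 300 CPM without and 271 and 303 with SMARCB1, a log2 difference of 0.01 ± 0.086 (SE). The exonuclease ISG20 had 29 and 36 counts without and 32 and 21 with SMARCB1, which after scaling was the lowest difference of the 29 genes, -0.48 ± 0.383 (SE).

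The membrane effectors gave small differences. The log2 differences of IFITM1, IFITM2, IFITM3 and BST2 with SMARCB1 lay between -0.14 and 0.08, with standard errors between 0.088 and 0.112, and were not called. With the replicate block and GC correction, IFITM3 was called lower with SMARCB1, at -0.23 (edgeR, Benjamini-Hochberg adjusted p 0.0446). IFI6, a mitochondrial protein induced by interferon, had 22.2 and 14.2 CPM in SMARCB1 DMSO and 21.1 and 13.1 in SMARCB1 Dox. For IFI6 the libraries numbered 1 were above those numbered 2 in both groups, and in both GFP groups too. OAS3, an oligoadenylate synthetase, differed by 0.09 ± 0.144 (SE) and IFI35, a cytoplasmic protein induced by interferon, by 0.08 ± 0.165 (SE).

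By role, 2 of the 5 sensors and adaptors tested, 0 of the 6 factors and 4 of the 18 effectors tested were called with SMARCB1. Across all genes tested, 14% were called in this comparison, 8.33% higher and 5.69% lower. The roles were not tested against each other. The median log2 fold change was 0.50 for sensors and adaptors, 0.18 for factors and 0.19 for effectors, against -0.004 for all genes tested. These medians are descriptions over 5, 6 and 18 genes. The effector median depended on single libraries, and was 0.06 without SMARCB1 Dox replicate 2 and 0.34 without SMARCB1 DMSO replicate 2. It was 0.12 with the replicate block and GC correction. Both libraries of SMARCB1 Dox lay above both of SMARCB1 DMSO for 14 of the 29 members and below them for 3, that is 17 genes without overlap, while 51.2% of all genes tested had no overlap in either direction. SMARCB1 Dox libraries had counts for 38 of the 47 members each, the SMARCB1 DMSO libraries for 32 and 33, and the GFP libraries for 32 to 35. Over all genes the SMARCB1 Dox libraries also had the most genes with a count, 22180 and 21919. The SMARCB1 DMSO libraries had 20944 and 21545, and the GFP libraries 20839 to 21713.

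Adding Dox to the GFP line asks what the drug and a foreign protein do on their own. Of the 29 members, 0 were called, and 0 of all genes tested, which is 0%. DESeq2 also called 0 members. At an unadjusted p under 0.05 there was 1 member, IRF7, and 266 of all genes (1.67%). That share is lower than a threshold of 0.05 gives on average without any effect, so small Dox effects may have been missed. The 6 genes that rose with SMARCB1 had log2 differences between -0.26 for STING1 and 0.17 for TLR3 here, with standard errors between 0.084 and 0.192. IRF7 had 0.562 and 0.599 CPM in GFP DMSO and 0.0649 and 0.218 CPM in GFP Dox, a log2 difference of -1.96 ± 0.595 (SE) that was not called (edgeR, Benjamini-Hochberg adjusted p 1). These are 19 and 23 counts against 2 and 8.

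**Figure D3:**
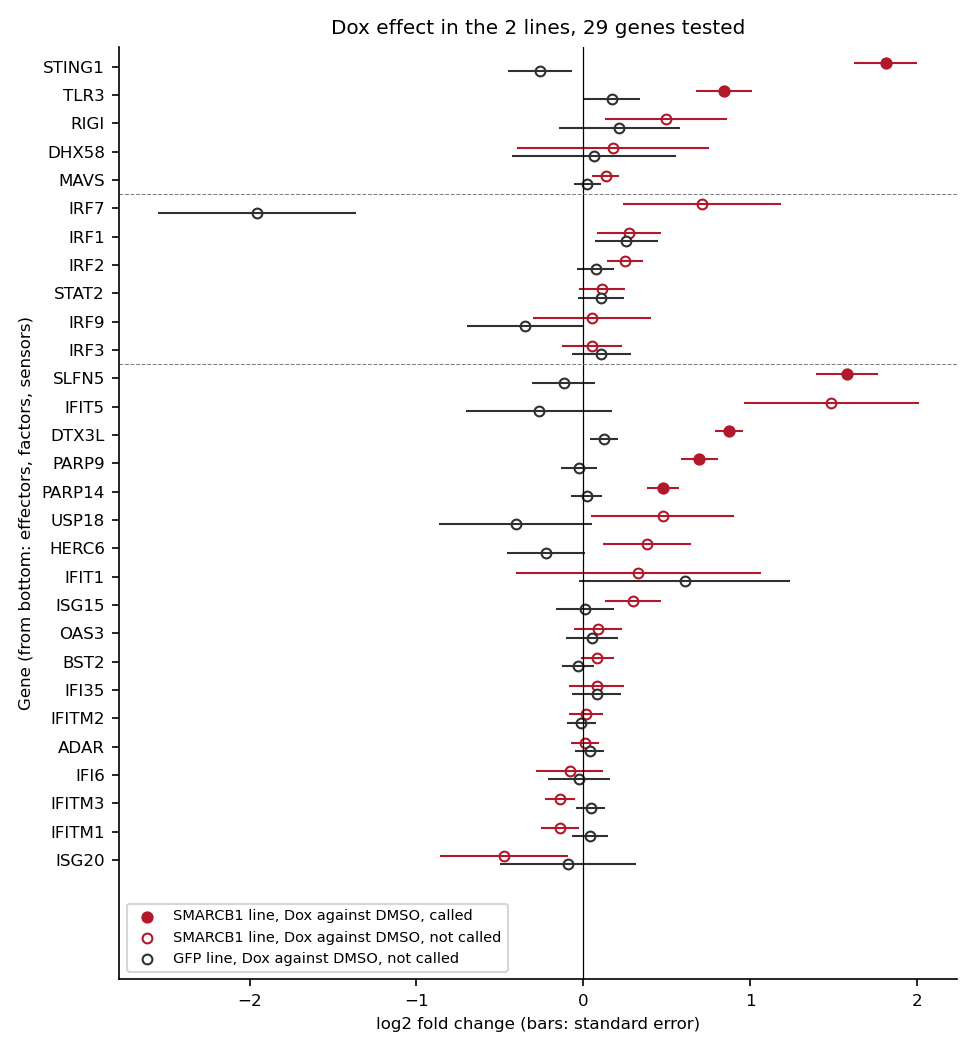
Log2 fold change of Dox against DMSO for the 29 genes tested, in the SMARCB1 line (red) and the GFP line (black), with bars of 1 standard error and filled points for genes called. STING1, TLR3, SLFN5, DTX3L, PARP9 and PARP14 are filled in red, and 0 genes are filled in black; IRF7 has the lowest value in the GFP line, -1.96.

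The difference between the Dox effects of the lines was tested in the same model. It was called for 5 members, each with a higher value in the SMARCB1 line, namely STING1, SLFN5, DTX3L, PARP9 and IRF7. Across all genes tested, 4.71% were called in this contrast, and 3.07% were called in that direction. The comparisons share libraries, since the difference is made from both Dox effects.

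The difference was 2.07 ± 0.269 (SE) for STING1 (edgeR, Benjamini-Hochberg adjusted p 6.13e-05) and 1.70 ± 0.265 (SE) for SLFN5 (edgeR, Benjamini-Hochberg adjusted p 0.000451). For DTX3L it was 0.75 ± 0.119 (SE) (edgeR, Benjamini-Hochberg adjusted p 0.000537). These 3 genes were called under all 15 alternatives run for this contrast. For PARP9 the difference was 0.72 ± 0.156 (SE) (edgeR, Benjamini-Hochberg adjusted p 0.00755), and without GFP Dox replicate 2 the adjusted p was 0.0505. The difference for IRF7, 2.67 ± 0.763 (SE), was at the threshold (edgeR, Benjamini-Hochberg adjusted p 0.0466). It was called in 6 of 15 alternatives, the adjusted p ranged from 0.00734 to 0.243 over them, and DESeq2 gave 0.0804. Leaving out any library other than SMARCB1 DMSO replicate 1 ended the call of IRF7.

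PARP14 and TLR3 rose in the SMARCB1 line, but their differences between the lines were not called. PARP14 had a difference of 0.46 ± 0.134 (SE) (edgeR, Benjamini-Hochberg adjusted p 0.0531) and was called in 5 of 15 alternatives. It was called without SMARCB1 Dox replicate 1, with an adjusted p of 0.0223 (edgeR, Benjamini-Hochberg). TLR3 had 0.67 ± 0.238 (SE) (edgeR, Benjamini-Hochberg adjusted p 0.13). An effect specific to the SMARCB1 line was therefore not shown for these genes.

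The lines also differed before any induction. Comparing SMARCB1 DMSO with GFP DMSO, 10 of the 29 members were called, 2 higher and 8 lower in the SMARCB1 line. Across all genes tested, 32% were called, 16.3% higher and 15.7% lower. This comparison shares the SMARCB1 DMSO libraries with the Dox comparison of that line. Residual SMARCB1 RNA, the transgene and the history of each line differ between the groups together and cannot be told apart. The lines also differed in markers fixed for other cell types. The summed level of 4 fibroblast markers was 100 to 125 CPM in SMARCB1 DMSO and 607 to 712 CPM in GFP DMSO, mostly from COL1A1, while LUM had 0 counts throughout. The summed level of VIM, WT1, PAX2 and PAX8, markers of mesenchymal and kidney lineage, was 1250 to 1310 and 685 to 746 CPM, with WT1 at 0. Nearly all of this sum was VIM, at 1280 and 707 CPM. PAX2 went the other way, with 1.01 CPM in SMARCB1 DMSO and 8.56 in GFP DMSO. Its log2 difference was -3.06 ± 0.256 (SE) (edgeR, Benjamini-Hochberg adjusted p 2.77e-09). The part of these markers in the results was not tested.

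The most pronounced difference among members was that of IFITM2 (chromosome 11, 303655 to 309397, plus strand). It had 530 and 558 counts in SMARCB1 DMSO and 3529 and 3655 in GFP DMSO, or 17.5 ± 0.889 and 99.8 ± 6.55 CPM (SD, n = 2). With Dox it had 16.9 and 18.6 CPM in the SMARCB1 line and 105 and 92.7 in the GFP line, so that no library of one line came near the other line. The log2 difference in DMSO was -2.51 ± 0.097 (SE), so that the SMARCB1 line had 0.176 times the level of the GFP line (edgeR, Benjamini-Hochberg adjusted p 3.36e-15).

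The neighbours of IFITM2 in the cluster between positions 303655 and 329475 of chromosome 11 were lower too. IFITM1 had 446 and 445 counts in SMARCB1 DMSO and 699 and 818 in GFP DMSO, a log2 difference of -0.55 ± 0.109 (SE) (edgeR, Benjamini-Hochberg adjusted p 0.000455). IFITM3 had 136 and 131 CPM against 167 and 150, a difference of -0.25 ± 0.088 (SE) (edgeR, Benjamini-Hochberg adjusted p 0.0343). The groups did not overlap for either gene, but the call of IFITM3 was lost without SMARCB1 DMSO replicate 1 (adjusted p 0.0579), SMARCB1 DMSO replicate 2 (0.126) or GFP DMSO replicate 1 (0.301). These 3 genes are related, so reads that fit several of them could be left out or assigned to the wrong gene, and each count is uncertain. How alike their sequences are was not measured here. Of the exon bases of IFITM1, 21.1% overlap another gene on the same strand and 10.6% on the opposite strand. For IFITM3, 16.3% overlap genes on the opposite strand.

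Further effectors were lower in the SMARCB1 line. IFI35 had 4.8 and 6.61 CPM in SMARCB1 DMSO and 12.3 and 11.5 in GFP DMSO, a log2 difference of -1.05 ± 0.158 (SE) (edgeR, Benjamini-Hochberg adjusted p 1.64e-05). HERC6 had 49 and 51 counts against 99 and 132, a difference of -0.98 ± 0.251 (SE) (edgeR, Benjamini-Hochberg adjusted p 0.0042). The groups were apart for both genes, and both were called in all 16 alternatives run. IFI6 had 22.2 and 14.2 CPM against 33.6 and 29.2, a difference of -0.79 ± 0.193 (SE) (edgeR, Benjamini-Hochberg adjusted p 0.00295). It was -0.50 and not called without SMARCB1 DMSO replicate 2 (edgeR, adjusted p 0.0624), and was not called by DESeq2 (adjusted p 0.107). Of its exon bases, 23.1% also belong to another gene on the same strand.

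IFIT5 had 10 and 8 counts in SMARCB1 DMSO and 34 and 36 in GFP DMSO, a log2 difference of -1.73 ± 0.515 (SE) (edgeR, Benjamini-Hochberg adjusted p 0.0127). Without SMARCB1 DMSO replicate 2 the adjusted p was 0.0841 (edgeR, Benjamini-Hochberg). STING1 was lower too, by a log2 difference of -0.65 ± 0.2 (SE) (edgeR, Benjamini-Hochberg adjusted p 0.0162), so that this gene lay below the GFP libraries without SMARCB1 and above them with it. That call was lost without SMARCB1 DMSO replicate 1 (adjusted p 0.0838) or GFP DMSO replicate 1 (0.104). SLFN5 had a difference of -0.49 ± 0.197 (SE) and was not called (edgeR, Benjamini-Hochberg adjusted p 0.061), except without SMARCB1 DMSO replicate 2 and with 2 of the other alternatives.

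OAS3 and IRF2 were higher in the SMARCB1 line. OAS3 had 12.6 and 17.5 CPM in SMARCB1 DMSO and 8.14 and 8.33 in GFP DMSO, a log2 difference of 0.87 ± 0.15 (SE) (edgeR, Benjamini-Hochberg adjusted p 9.13e-05). IRF2 had 17.6 CPM in both SMARCB1 DMSO libraries and 12.7 and 12.5 in GFP DMSO, a difference of 0.48 ± 0.109 (SE) (edgeR, Benjamini-Hochberg adjusted p 0.00167). Neither pair of groups overlapped, and both genes were called in all 16 alternatives. The relatives of OAS3, OAS1 and OAS2, had at most 9 counts in any library.

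**Figure D4:**
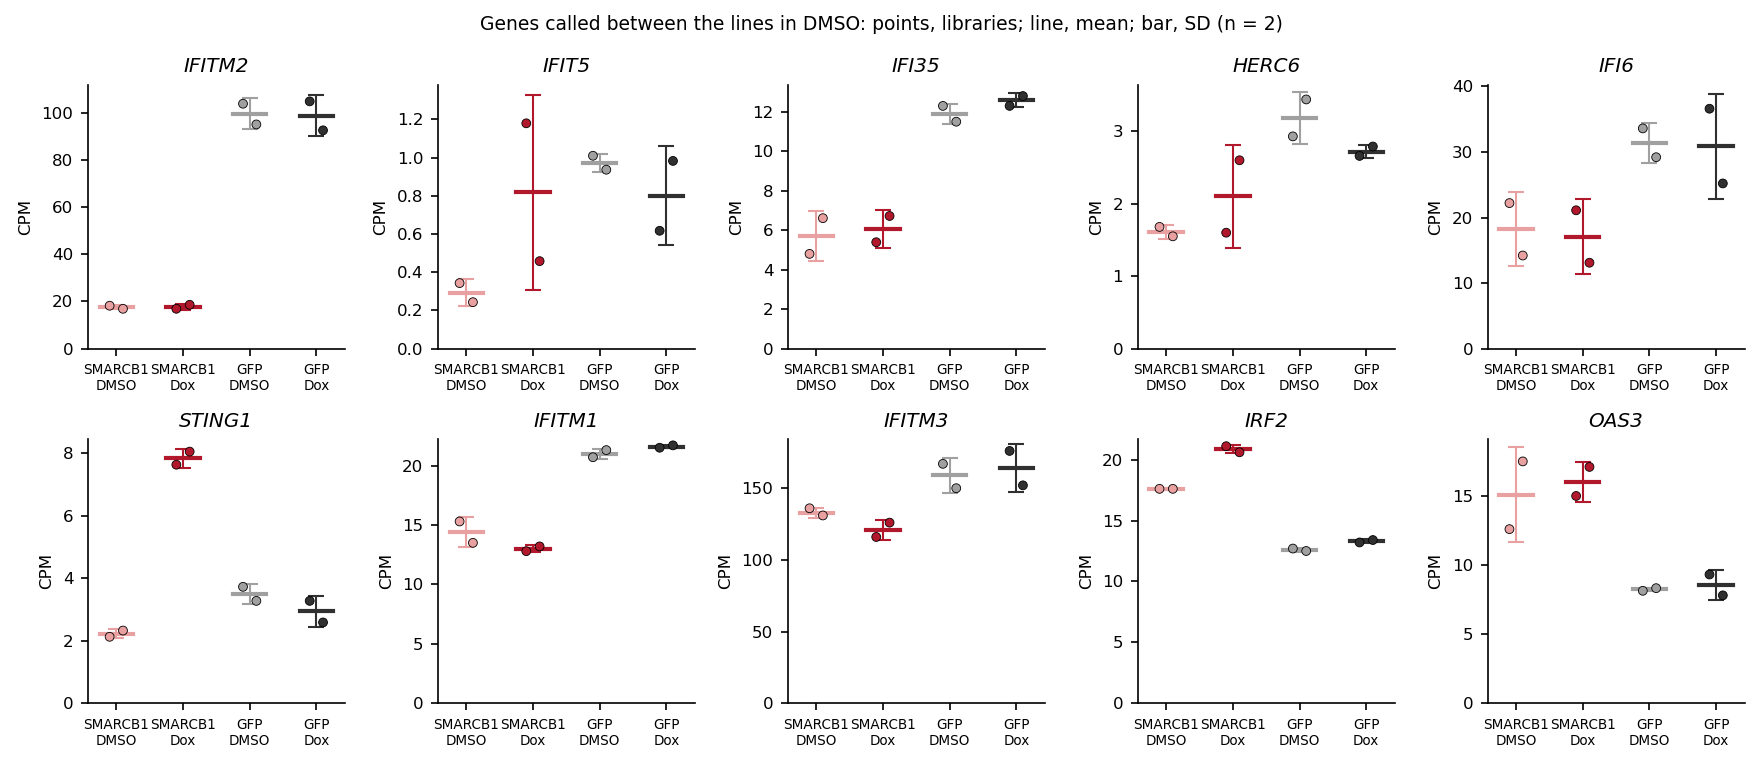
CPM of the 10 genes called for SMARCB1 DMSO against GFP DMSO, with 1 point per library, a line at the group mean and bars of 1 SD (n = 2), on axes that start at 0. IFITM2 lies at 17.5 CPM in SMARCB1 DMSO and 99.8 CPM in GFP DMSO and at means of 17.7 and 98.9 CPM with Dox; of the 10 genes, only STING1 is also called for Dox in the SMARCB1 line.

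The median log2 difference between the lines was -0.16 for the 29 members tested, against 0.015 for all genes tested. By role it was -0.21 for the 18 effectors, -0.02 for the 6 factors and -0.36 for the 5 sensors and adaptors. With library totals in place of TMM factors, the median of all genes moved to -0.101 and that of the members to -0.29. Both SMARCB1 DMSO libraries were above both GFP DMSO libraries for 3 members and below for 14, that is 17 of 29 without overlap, while 64.7% of all genes tested had none.

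ISRE matches were common in the promoter windows of the members, whether or not the genes were expressed. This motif, on either strand, was present in the windows of 22 of the 34 genes with a window (64.7%), and in 4.38% of 27305 genes of the table (3.57% of 35116 windows). It was in 13 of the 21 windowed genes that were tested for expression and in 9 of the 13 that had too few counts. Among the genes that rose with SMARCB1, the 4 with a window, DTX3L, PARP9, PARP14 and TLR3, all had it, while it was found in 9 of 17 tested genes that were not called. DTX3L and PARP9 share 1 site, so these 4 genes hold 3 sites. In the comparison of the lines, 5 of the 7 called genes with a window had it. A second motif, the interferon gamma activated sequence (GAS; TTC, any 3 bases and GAA), was in the windows of 10 of the 34 genes (29.4%), against 9.38% of all genes (7.66% of windows). Matches of either motif could overlap, as they did in the windows of ISG15 and BST2. These matches are a description of the letters in each window, and no binding was measured. The 13 members without a window were CGAS, DHX58, IFIT2, IFITM2, IRF2, IRF3, IRF7, MX2, OAS2, OASL, SLFN5, STING1 and USP18.

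**Figure D5:**
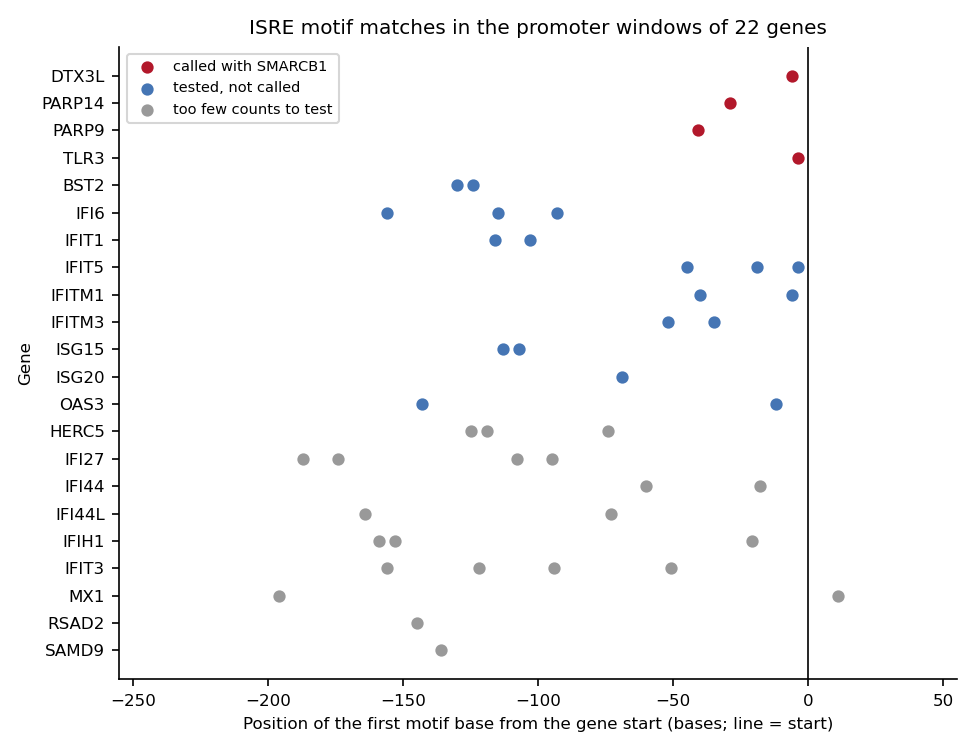
Position of each ISRE match in the promoter windows of 22 genes, as the distance in bases of its first base from the RefSeq gene start (vertical line). In the 4 genes called with SMARCB1 (red) it begins between 41 and 4 bases before the RefSeq start; genes tested and not called (blue) and genes with too few counts (grey) also have matches.

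Other genes of the pathway were called with SMARCB1 in both directions. Of 10 interferon receptor and kinase genes, 1 was called higher and 1 lower, while 14% of all genes tested were called. IFNGR1, a chain of the receptor of type II interferon, was higher with SMARCB1, at 32.8 ± 3.11 CPM against 25.1 ± 2.16 (SD, n = 2), which is a log2 change of 0.38 ± 0.1 (SE) (edgeR, Benjamini-Hochberg adjusted p 0.0125). The other, IFNAR1, a chain of the type I receptor, changed by -0.26 ± 0.084 (SE) (edgeR, Benjamini-Hochberg adjusted p 0.0427). IFNAR1 is named after its values were seen.

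Of 13 genes that relay signals from the sensors and were tested, out of 15 listed, 0 were called higher and 3 lower. Of all genes tested, 8.33% were called higher and 5.69% lower. The 2 not tested, TICAM1 and IRF5, had 0 counts in all 8 libraries and are named after their values were seen. Of the 13, 7 had a log2 change above 0, among them TRAF6 at 0.28 (edgeR, Benjamini-Hochberg adjusted p 0.0588) and NFKB1 at 0.25 (adjusted p 0.0506), neither of them called and both named after their values were seen. RNF135, a ubiquitin ligase that activates RIG-I, went from 4.9 ± 0.438 to 2.85 ± 0.337 CPM (SD, n = 2), a log2 change of -0.79 ± 0.184 (SE) (edgeR, Benjamini-Hochberg adjusted p 0.00557). TBK1, the kinase that phosphorylates IRF3, went from 39.5 ± 0.186 to 29.3 ± 1.42 CPM (SD, n = 2), a change of -0.44 ± 0.087 (SE) (edgeR, Benjamini-Hochberg adjusted p 0.00142). AZI2, an adaptor of TBK1, changed by -0.43 ± 0.088 (SE) (edgeR, Benjamini-Hochberg adjusted p 0.00195). The difference from the Dox effect in the GFP line was called for RNF135, at -0.96 (edgeR, Benjamini-Hochberg adjusted p 0.0283), and for TBK1, at -0.46 (adjusted p 0.0315), but not for AZI2. The median of the 13 genes was 0.01, against -0.004 for all genes tested.

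Among 18 further sensors and nucleases, 9 were tested and 0 were called with SMARCB1, with 1 at an unadjusted p under 0.05. The shares of all genes tested were 14% called and 26% at an unadjusted p under 0.05. Between the lines, where 32% of all genes tested were called, 16.3% higher and 15.7% lower, 4 of the 9 were lower in SMARCB1 DMSO, with SAMHD1, which degrades nucleotides, at a log2 difference of -0.57 ± 0.08 (SE) (edgeR, Benjamini-Hochberg adjusted p 7.07e-06), followed by SKIC2 (-0.44), RNASEH2B (-0.27) and PNPT1 (-0.24). Of the receptor and kinase genes, 3 of 10 were called between the lines, a share near that of all genes. The kinase JAK1 was lower by a log2 difference of -0.83 (edgeR, Benjamini-Hochberg adjusted p 9.09e-08), and the receptor chains IFNLR1 and IFNGR2 were higher by 1.50 (adjusted p 0.00103) and 0.46 (adjusted p 0.000555). Of the 13 relay genes, 2 were higher in SMARCB1 DMSO, among them the NF-kB subunit RELA at 0.29 (adjusted p 0.00822).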

How the data were processed

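RNA of 8 libraries was measured as raw read counts per gene, 1 table per library, in 4 groups of 2 named from the sample titles. The authors made the deposited counts with STAR and HTSeq over exons of GENCODE v42 in intersection-strict mode, and the submitters' processing notes name hg38. Tool versions and the strand option are not given in the sources used here. The labels name kits made for ribosome profiling and the study's methods a directional total RNA kit, so the library chemistry is uncertain. Entries that name no gene (27% to 29.3% of reads) were left out. Ensembl identifiers without version were matched to GENCODE v44 on GRCh38 for 62625 of 69215 genes and all 47 members. Libraries of a group differed by more than counting noise (chi-square per degree of freedom 7.4 to 20), so none was a copy.

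The test was edgeR 4.0.16 (R 4.3.3), quasi-likelihood, on the counts as deposited, with filterByExpr, TMM and 1 mean per group over all 8 libraries, adjusted after Benjamini and Hochberg over 15931 genes, in 4 comparisons. Standard errors are the log2 fold change divided by the square root of its F value. DESeq2 1.42.0 (the tool of the study's methods), other scalings, no filter, a replicate block, a GC correction, fits of only the groups compared and leaving out each library were alternatives. The steps were tested on simulated data. Named in every library are members called in any comparison, the sensors and adaptors, and the factors. At most 4 called genes per pathway list are named, plus genes chosen after their values were seen where stated. The members and lists were chosen with earlier results of these data known, and motifs were searched in RefSeq promoter windows.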

Additional observations from a re-analysis of the deposited data

Results flagged for a closer look

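The Dox effect differed between the SMARCB1 line and the GFP line, by the test of the difference itself, for 5 members, and 4.71% of all genes tested differed in this way. The log2 difference was 2.071 for STING1, 1.698 for SLFN5, 0.745 for DTX3L, 0.722 for PARP9 and 2.668 for IRF7 (edgeR quasi-likelihood test, Benjamini-Hochberg adjusted p 6.13e-05, 0.000451, 0.000537, 0.00755 and 0.0466). For STING1, SLFN5, DTX3L and PARP9, both SMARCB1 Dox libraries were above all 6 other libraries. For IRF7, both GFP Dox libraries were below the other 6, with 2 and 8 counts, and the difference was called in 6 of the 15 alternatives run. Groups of 2 libraries are too small for a test of single outlying samples.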

How the results depend on the processing

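Over all alternatives run, 6 to 9 members were called with SMARCB1 and 0 with Dox in the GFP line, and no member reversed its direction in a comparison in which it was called in any fit. Leaving out 1 library gave 6 to 7 members for SMARCB1 Dox against SMARCB1 DMSO, 3 to 5 for the difference of the Dox effects, with 3 without GFP Dox replicate 2, and 8 to 10 for SMARCB1 DMSO against GFP DMSO. DESeq2 gave 6, 4 and 9, and library totals gave 8, 6 and 14. Among all genes, leaving out SMARCB1 Dox replicate 1 or SMARCB1 DMSO replicate 1 lowered the 2234 genes called with SMARCB1 to 1284 and 1462. The count for the difference of the Dox effects went from 750 to between 390 and 497 without SMARCB1 Dox replicate 1 or without any 1 GFP library, and was 1282 with the replicate block. With library totals, 1985 genes were higher and 497 lower with SMARCB1 in place of 1327 and 907, 670 and 159 for the difference in place of 489 and 261, and 1732 and 3657 between the lines in place of 2600 and 2505. Without an expression filter 1 gene was called in the GFP line.

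The main fit did not pair libraries by replicate number. The deviations of same-numbered libraries from their group means correlated at 0.031 to 0.148 over 6 pairs of groups. All were positive, so these values do not show that the libraries were unpaired. Whether equal numbers mark a shared day was not stated. With the replicate number as a block, 3149 of all genes were called with SMARCB1 in place of 2234, and 7, 0, 6 and 12 members were called in place of 6, 0, 5 and 10, and 9, 0, 6 and 13 with the block and a GC correction. Depth limits the 18 members not tested, which had at most 9 counts in a library, and with 2 libraries a group each SD rests on 1 degree of freedom. The cause of these changes was not tested.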

Other observations

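A further list of interferon-stimulated genes, apart from the 47, held more genes called higher than lower with SMARCB1. Of 40 listed genes, 39 were in the files and 28 were tested. With SMARCB1, 8 were called higher and 1 lower, beside 14% of all genes tested called, 8.33% higher and 5.69% lower. The median log2 fold change of the 28 genes was 0.21, against -0.004 for all genes. TRIM38, a ubiquitin ligase, had 1 and 2 counts in SMARCB1 DMSO and 37 and 15 in SMARCB1 Dox, and 0 to 6 in the GFP libraries. Its log2 fold change was 3.83 ± 0.894 (SE) (edgeR, Benjamini-Hochberg adjusted p 0.00532). TRIM38 passed the expression filter only through the SMARCB1 Dox libraries, so this call is a description and not separate support. NMI, a partner of IFI35, had 3 and 6 counts without and 31 and 13 with SMARCB1, and 53 to 72 in the GFP libraries. It rose by 2.08 ± 0.554 (SE) in the SMARCB1 line (edgeR, adjusted p 0.0137) and was lower in SMARCB1 DMSO than in GFP DMSO, at -3.60 ± 0.48 (SE; edgeR, adjusted p 3.66e-06). The difference of the Dox effects was called for 1 gene of the list, TRIM22, which is named after its values were seen. It had 12 and 18 counts without and 96 and 90 with SMARCB1, and 11 to 27 in the GFP libraries, and its difference was 2.23 ± 0.564 (SE; edgeR, adjusted p 0.0223).

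Between the lines in DMSO, 9 of the 28 genes tested were higher and 5 lower in the SMARCB1 line, while 16.3% of all genes tested were called higher and 15.7% lower. GBP3, a guanylate-binding protein, had 8 and 6 counts against 0 and 1 (log2 difference 3.72 ± 1.13 (SE), edgeR, adjusted p 0.0145). It passed the expression filter only through SMARCB1 Dox, with 35 and 19 counts. PLSCR1, a phospholipid scramblase, had 5 and 14 counts against 0 and 2 (3.29 ± 0.998 (SE), edgeR, adjusted p 0.0147). The differences of GBP3 and PLSCR1 rest on few counts. Of 14 negative regulators of the pathway, 13 were tested. With SMARCB1, 1 was higher and 2 were lower, beside 14% of all genes tested called in that comparison, and between the lines 3 were higher and 3 lower, beside 32% of all genes. TNFAIP3, which encodes the deubiquitinase A20, was at 134 ± 6.14 CPM in SMARCB1 DMSO and 10.6 ± 0.116 CPM in GFP DMSO (SD, n = 2), a log2 difference of 3.66 ± 0.095 (SE; edgeR, adjusted p 3.27e-18). SOCS1, an inhibitor of JAK kinases, was higher by 0.80 (adjusted p 4.87e-06) and RNF125, a ubiquitin ligase, by 1.32 (adjusted p 1.09e-08), while the phosphatase PTPN6 was lower, at -1.52 (edgeR, adjusted p 0.000896).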
